A study of Mus musculus with 6 samples.

Results

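Satellite cells are the stem cells of skeletal muscle, and myoblasts are their dividing and differentiating progeny. Quiescent satellite cells express the transcription factor Pax7; after injury they divide, switch on Myod1 and then Myog, leave the cell cycle and fuse into new muscle fibres. Cells of this lineage were selected from single-cell RNA data of mouse quadriceps as barcodes with at least 500 gene UMIs (unique molecular identifiers, 1 per captured transcript) and a sum of at least 2 UMIs over Pax7, Myf5, Myod1, Myog, Cdh15 and Chodl. Barcodes with more than 2 UMIs of the macrophage genes C1qa, C1qb and Tyrobp or more than 1 UMI of the endothelial genes Pecam1 and Cdh5 were left out. The selection kept 212 of 8258 barcodes.

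The groups were male wild-type (WT) C57BL/6 mice of 2 to 3 months. In the critical group a 3 mm defect of the left quadriceps, a volumetric muscle loss (VML) injury, had been made 7 days earlier, in the subcritical group a 2 mm defect 7 days earlier, and the naive control group had uninjured quadriceps. Each group was 4 animals, hashtagged with barcoded antibodies, pooled, stained with a barcoded antibody panel and loaded on 1 lane, giving 1 gene library and 1 antibody library per group. With 1 library per group there was no replicate of a group, so no difference between groups was tested apart from the share of hashtagged cells per animal, and the intervals given cover counting error only. In pooled libraries a change of the cells captured and a change of the cells in the muscle cannot be told apart.

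The selected cells were 110 of 3161 barcodes in the critical library (3.48%, exact Clopper-Pearson 95% interval 2.87 to 4.18%), 77 of 2902 in the subcritical library (2.65%, 2.10 to 3.31%) and 25 of 2195 in the uninjured library (1.14%, 0.738 to 1.68%). The critical and subcritical intervals overlapped, and the uninjured interval lay below both. Of barcodes within the immune and endothelial limits, selected cells were 6.79% in critical (5.61 to 8.13%), 5.45% in subcritical (4.32 to 6.76%) and 3.005% in uninjured (1.95 to 4.40%). On that base the uninjured interval lay below the critical one but overlapped the subcritical one. The median depth of the selected cells was 2141 UMIs in critical, 1493 in subcritical and 1956 in uninjured cells. In the summed counts 1 UMI was thus worth 3.34, 6.96 and 14.3 counts per 1000000 UMIs (CPM) in the same order. Mitochondrially encoded transcripts were 0.597% of UMIs in critical, 0.327% in subcritical and 0.416% in uninjured selected cells. Their median log2 fold of critical over subcritical, 0.90 in the selected cells, was 1.02, 0.82, 1.01 and 0.85 in gates drawn for fibroblasts, endothelium, macrophages and mural cells. The libraries shared 10 to 16 barcodes per pair, and 1 selected cell was among them. No selected cell carried 2 or more hashtags at the calling limit.

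Near the limit of the rule, 26 critical cells had a marker sum of 2, of which 15 carried a muscle gene (Pax7, Myf5, Myod1, Myog or Cdh15) and 11 a UMI of Des, the muscle intermediate filament desmin. The 33 critical cells just outside, with a sum of 1, held 12 with a muscle gene and 9 with Des. In the subcritical library 25 cells had a sum of 2, of which 15 carried a muscle gene and 7 Des, and 34 had a sum of 1, of which 17 carried a muscle gene and 8 Des. In the uninjured library 2 cells had a sum of 2 and 7 cells a sum of 1.

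The selected cells were of 2 kinds. By the rule itself, a muscle gene of the rule was present in 82 of 110 critical cells, 57 of 77 subcritical cells and 17 of 25 uninjured cells, which were 2.59%, 1.96% and 0.774% of barcodes; these are called muscle-gene cells here. The other 28 critical cells (25.5%), 20 subcritical cells (26.0%) and 8 uninjured cells (32.0%) qualified on Chodl, which encodes the membrane lectin chondrolectin, alone. Des, which the rule did not use, checks the label. In the Chodl-only cells it stood at 56.4 CPM in critical, 0 in subcritical and 61.1 CPM in uninjured cells, against 889, 956 and 703 CPM in muscle-gene cells. Tnmd, the tendon membrane protein tenomodulin, stood at 4109 CPM in critical, 4211 in subcritical and 4185 in uninjured Chodl-only cells, against 114, 0 and 0 CPM in muscle-gene cells, and the 114 CPM came almost wholly from 1 Myog-positive cell with 23 Tnmd UMIs. Scx, a transcription factor of tendon progenitors, was at 971, 1011 and 1161 CPM and the tendon matrix gene Fmod at 3116, 2560 and 11390 CPM in Chodl-only cells of the critical, subcritical and uninjured libraries. In muscle-gene cells Scx stood at 142.5, 115.6 and 27.0 CPM and Fmod at 38.0, 21.0 and 0 CPM. Scx was found in 10 of 33 Myog-positive critical and 9 of 24 Myog-positive subcritical cells, so it was not particular to Chodl-only cells. At least 1 UMI of Tnmd, Scx or Fmod was found in 25, 17 and 6 Chodl-only cells, and in 19, 12 and 1 muscle-gene cells. The Chodl-only cells therefore carried tenocyte markers, while the other muscle genes of the rule were at 0 in them by definition; values without them are given beside the shares of states and the genes that rested on them.

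**Figure D1:**
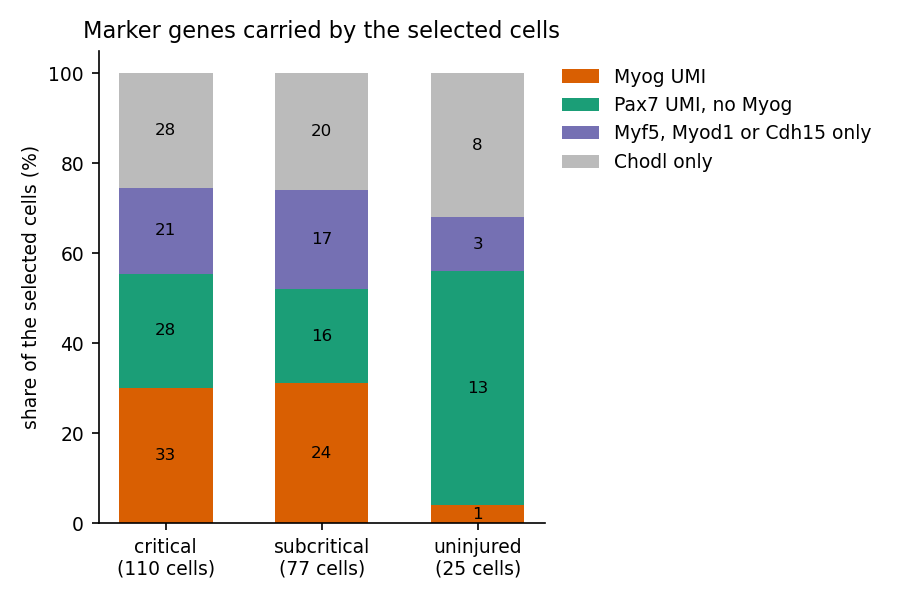
Share of the selected cells (vertical axis, %) in the critical, subcritical and uninjured libraries that carried a Myog UMI, a Pax7 UMI without Myog, another muscle gene of the rule, or Chodl alone; numbers in the bars are cells. Myog-positive cells were 33 of 110 critical, 24 of 77 subcritical and 1 of 25 uninjured cells.

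**Figure D2:**
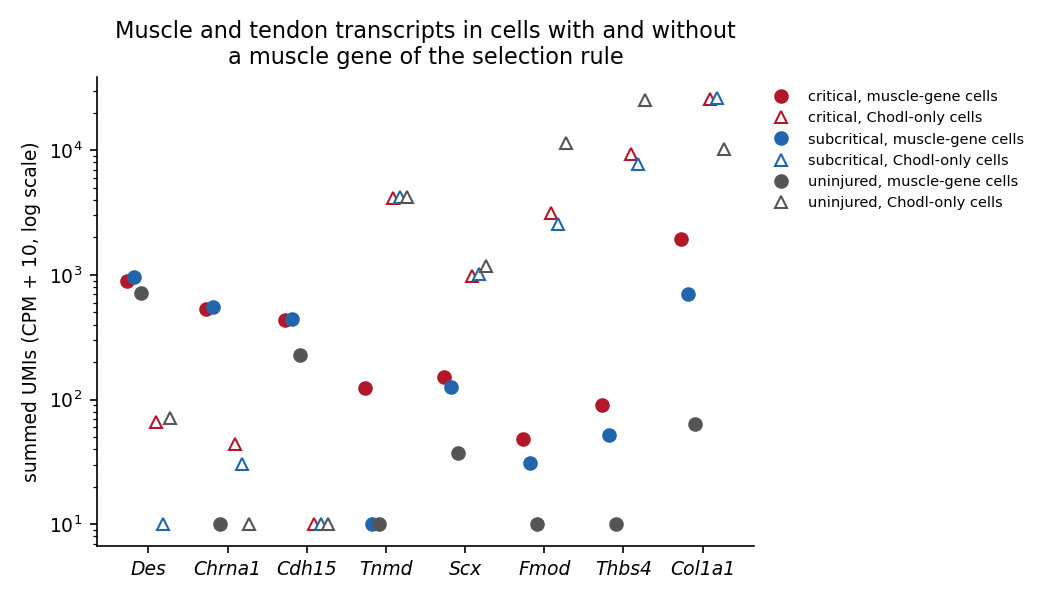
Summed UMIs (CPM + 10, log axis) of 3 muscle genes (Des, Chrna1, Cdh15), 4 tendon genes (Tnmd, Scx, Fmod, Thbs4) and the collagen gene Col1a1 in muscle-gene cells (filled circles) and Chodl-only cells (open triangles) of each library. The tendon genes were high in Chodl-only cells of all 3 libraries, and Cdh15 was at 0 there by the rule.

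The 3 tenocyte markers summed to 2635 CPM in critical, 2715 in subcritical and 7874 CPM in uninjured selected cells, and to 294.5, 136.6 and 27.0 CPM in muscle-gene cells. Markers of endothelium, glia, mural cells and lymphocytes were lower. The 6 endothelial markers summed to 30.1 CPM in critical, 48.7 in subcritical and 14.3 in uninjured cells, and the 6 macrophage markers to 314, 223 and 14.3 CPM; the rule limited both lists. Of 5 glial markers, 1 UMI was found in critical cells and 0 in the other 2 libraries, and of 3 B and T cell markers 1 UMI in each library. The 5 mural markers summed to 66.9 CPM in critical, 62.7 in subcritical and 86.1 in uninjured cells. The 7 fibroblast markers summed to 14430, 13970 and 11690 CPM over all selected cells, and to 3607 CPM in critical, 1670 in subcritical and 1244 in uninjured muscle-gene cells. The 5 markers of mature fibres summed to 90.3, 160 and 57.4 CPM.

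Against the gates for fibroblasts, endothelium, macrophages and mural cells, the 12 genes outside the rule with the highest smallest fold in both injured libraries were Ttn, Chrna1, Arpp21, Mymx, Mymk, Jsrp1, Actc1, Tnnt2, Neb, Sox8, Actn3 and Atp2a1. They encode sarcomere proteins (titin, nebulin, cardiac alpha-actin, troponin T2 and alpha-actinin 3), the 2 muscle fusogens myomaker (Mymk) and myomixer (Mymx), the acetylcholine receptor alpha subunit and calcium-handling proteins of the sarcoplasmic reticulum. Des was not particular to the selected cells, at 642 CPM in critical and 634 CPM in subcritical selected cells beside 657 and 506 CPM in the mural gate. Because the rule chose cells by muscle genes, these folds describe the cells and are not evidence for the label.

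The 6 genes of the rule are given as a description. Pax7 had 147 CPM in critical, 167 in subcritical and 359 CPM in uninjured cells. Myf5, which marks satellite cells and committed myoblasts, had 90.3, 216 and 230 CPM, and Myod1, the regulator that commits cells to the muscle programme, 358, 446 and 100 CPM. Myog, which drives differentiation, had 1207 CPM in critical, 1873 in subcritical and 14.3 CPM (1 UMI) in uninjured cells, and reached 53 UMIs in 1 critical cell. Cdh15, the adhesion molecule M-cadherin, had 298, 285 and 115 CPM, and Chodl 472, 641 and 1147 CPM. Pax7, Myf5 and Chodl were thus highest in the uninjured library, Myf5 only slightly above the subcritical library. Myod1, Myog and Cdh15 were highest in the injured libraries. The critical interval lay below the subcritical one for Myf5 (59.5 to 131 against 147 to 306 CPM). The same held for Myog (1086 to 1338 against 1656 to 2110 CPM).

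A Myog UMI was found in 30.0% of critical cells (33 of 110, 21.6 to 39.5%), 31.2% of subcritical cells (24 of 77, 21.1 to 42.7%) and 4.0% of uninjured cells (1 of 25). A Pax7 UMI without Myog was found in 25.5% (28 cells, 17.6 to 34.7%), 20.8% (16 cells, 12.4 to 31.5%) and 52.0% (13 cells, 31.3 to 72.2%). Both genes were found together in 2, 2 and 0 cells. After thinning every cell to 1000 UMIs, which left out 16, 22 and 7 shallower cells, Myog was found in 28.7% of critical, 34.5% of subcritical and 0 of 18 uninjured cells (3 counts of the total allow a share of cells with a Myog UMI of up to 16.7%, which does not bound expression), and Pax7 without Myog in 12.8%, 16.4% and 38.9%. Outside the selection Myog was seen in 0.0328% of critical, 0.283% of subcritical and 0 of 2170 uninjured barcodes. The shares of the critical and subcritical libraries overlapped in their intervals for both states. Without the Chodl-only cells Myog was found in 40.2% of critical (33 of 82, 29.6 to 51.7%), 42.1% of subcritical (24 of 57, 29.1 to 55.9%) and 5.88% of uninjured cells (1 of 17, 0.149 to 28.7%), and Pax7 without Myog in 34.1%, 28.1% and 76.5% (13 of 17, 50.1 to 93.2%).

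Myog-positive and Pax7-positive cells (with Pax7 and no Myog UMI) differed in named genes: sarcomere genes, the fusogens and cell cycle inhibitors were higher in Myog-positive cells, and collagen genes and Notch3 were lower. Of 4851 genes with a mean of at least 20 CPM, 327 (6.74%) were past 2-fold higher in Myog-positive cells in both injured libraries and 399 (8.23%) were past 2-fold lower. The states were split by genes of the same cells, so these values are a description.

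Actc1, the alpha-actin of embryonic muscle and heart, had 1319 CPM in Myog-positive and 0 in Pax7-positive critical cells (at least 27.8-fold higher, with the Pax7-positive cells set to 3 counts), and 3433 CPM against 0 in subcritical cells (at least 31.6-fold). Tnnt2, the embryonic troponin T, had 489 CPM against 0 (at least 10.3-fold) in critical and 1158 CPM against 0 (at least 10.7-fold) in subcritical cells. The fusogen Mymk had 872 CPM in Myog-positive and 15.8 CPM in Pax7-positive critical cells, and 1137 CPM against 0 in subcritical cells (at least 10.5-fold). Its partner Mymx had 330 CPM against 0 in critical and 842 CPM against 0 in subcritical cells (at least 6.96-fold and 7.76-fold). These 4 genes thus had 0 UMIs in Pax7-positive cells, apart from Mymk in critical cells. In Pax7-positive cells 3 counts are 47.4 CPM in critical and 109 CPM in subcritical cells, so lower levels could go unseen.

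The cyclin-dependent kinase inhibitor gene Cdkn1c (p57) stood at 5287 CPM in Myog-positive and 427 CPM in Pax7-positive critical cells (log2 fold 3.63, interval 3.07 to 4.25), and at 5981 CPM against 362 CPM in subcritical cells (4.04, 3.15 to 5.12). The other inhibitor, Cdkn1a (p21), had 681 CPM against 253 CPM in critical and 1432 CPM against 181 CPM in subcritical cells. Jam3, an adhesion molecule of fusing myoblasts, had log2 folds of 3.31 (1.70 to 5.67) and 3.64 (1.05 to 9.04). The adhesion receptor gene Megf10 had 234 CPM in Myog-positive and 15.8 CPM in Pax7-positive critical cells, and 211 CPM against 72.4 CPM in subcritical cells. Acta2, the smooth muscle actin, had 3926 CPM against 1138 CPM in critical and 4865 CPM against 1340 CPM in subcritical cells, and stood at 129 CPM over all uninjured selected cells. Tnni1, Acta1, Arpp21, Fndc5, Plxna1 and Aamdc completed the 12 highest.

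On the Pax7 side, Notch3, a receptor of the pathway that keeps satellite cells quiescent, had 31.9 CPM in Myog-positive and 269 CPM in Pax7-positive critical cells (log2 fold -3.03, -5.49 to -1.28), 21.1 CPM against 398 CPM in subcritical cells (-4.18, -9.67 to -1.46, on 1 UMI in Myog-positive cells) and 272 CPM in uninjured Pax7-positive cells. Heyl, a transcriptional target of Notch, had 74.5 CPM against 316 CPM in critical and 21.1 CPM against 217 CPM in subcritical cells. Gpx3, a secreted glutathione peroxidase, had 170 CPM against 1375 CPM in critical and 63.2 CPM against 869 CPM in subcritical cells, and 4150 CPM in uninjured Pax7-positive cells. The collagen VI gene Col6a3 had 21.3 CPM in Myog-positive and 758 CPM in Pax7-positive critical cells, and 0 against 217 CPM in subcritical cells (at least 3.44-fold lower). The basement membrane collagen gene Col4a2 had 0 against 221 CPM in critical cells (at least 6.93-fold lower) and 21.1 CPM against 254 CPM in subcritical cells. Mgp had 106 CPM against 1517 CPM and 21.1 CPM against 217 CPM. Adamts1, Sparcl1, Itgav, Col5a3, Zfp36, Col6a2 and Mia2 completed the 12 lowest. The fibroblast list, whose genes partly overlap in kind with these, was lower too, with a median log2 fold of -1.39 in critical (-1.31 with genes at 0 set to their bound) and -2.17 in subcritical cells (0 of 11 and 1 of 8 measured genes higher); the 7 fibroblast markers summed to 2308 CPM in Myog-positive and 7521 CPM in Pax7-positive critical cells, and to 569 CPM against 3694 CPM in subcritical cells. Their part in the matrix values was not tested.

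By lists, the medians of all genes were -0.15 in critical and -0.05 in subcritical cells. A gene at 0 in Pax7-positive cells reached the minimum only through Myog-positive cells and could only count as higher. The reverse held for a gene at 0 in Myog-positive cells, so the direction of such genes in the counts was fixed. The 16 differentiation regulators (MEF2 factors, kinase inhibitors and cofactors) were higher in 12 of 12 measured genes in critical and 11 of 12 in subcritical cells, with medians of 2.26 and 3.51, or 1.65 and 0.93 with genes at 0 set to their bound. The embryonic and early sarcomere list was higher in 12 of 13 and 21 of 21 measured genes, with medians of 2.53 and 6.41, or 1.85 and 1.21 at the bound. The acetylcholine receptor and synapse list was higher in 7 of 7 and 5 of 6, with medians of 1.57 and 1.49 (0.995 at the bound in subcritical cells); its leading gene Chrna1 had 777 CPM against 111 CPM in critical and 927 CPM against 145 CPM in subcritical cells. The basement membrane and niche matrix list was higher in 2 of 18 and 0 of 14, with medians of -2.09 and -2.54 (-1.73 at the bound). The satellite cell identity list was higher in 3 of 14 and 4 of 13, with medians of -0.75 and -1.14 (-0.78 at the bound). The proliferation list was higher in 6 of 22 and 7 of 23, with medians of -0.60 and -0.75 (-0.56 in both at the bound). The fusion list was higher in 5 of 10 and 4 of 8, with medians of 0.17 (0.32 at the bound) and 0.48. The Notch pathway list was higher in 7 of 12 and 4 of 9, with medians of 0.01 and -2.08 (0 at the bound), so Notch3 and Heyl do not stand for the whole list.

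**Figure D3:**
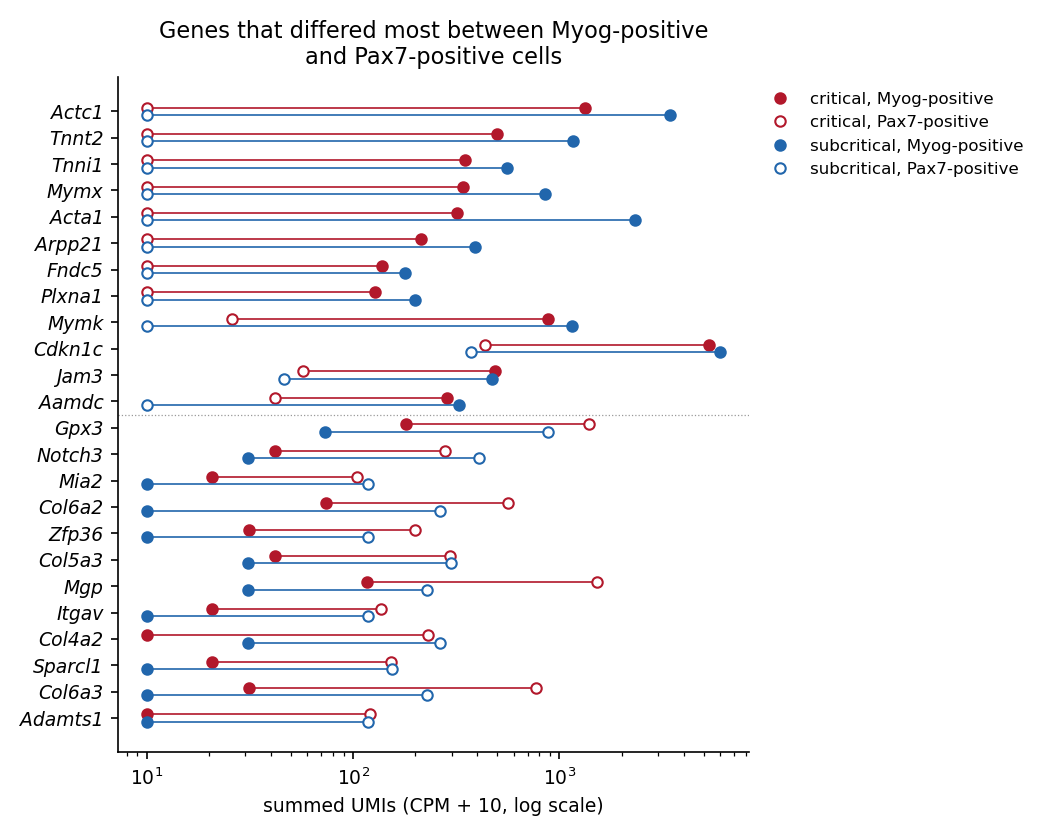
Levels (summed UMIs, CPM + 10, log axis) of the 12 genes highest and, below the dotted line, the 12 genes lowest in Myog-positive (filled) over Pax7-positive (open) cells of the critical (red) and subcritical (blue) libraries. Points at the left edge are at 0 UMIs, as for Actc1, Tnnt2 and Mymx in Pax7-positive cells of both libraries.

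Promoters of 3 genes that differed between the libraries or the states, Chrna1 and the actin and myosin genes Acta1 and Myl1, are shown because E-box motifs of the form CAGCTG are bound by the MYOD family of factors that includes Myod1 and Myog. Each line gives 250 bases before to 50 after the RefSeq transcription start on the strand of the gene, from the GRCm38.p6 table, with the motif in capitals; the gene counts were made on GRCm39, per the submitters' processing notes, and no coordinate was carried between the builds. CAGCTG reads the same on both strands. Chrna1 (chr2:73580289-73580588, minus strand) holds it at positions -92 and -44 from the start, Acta1 (chr8:123894726-123895025, minus strand) at -221 and Myl1 (chr1:66945007-66945306, minus strand) at -224.
Chrna1: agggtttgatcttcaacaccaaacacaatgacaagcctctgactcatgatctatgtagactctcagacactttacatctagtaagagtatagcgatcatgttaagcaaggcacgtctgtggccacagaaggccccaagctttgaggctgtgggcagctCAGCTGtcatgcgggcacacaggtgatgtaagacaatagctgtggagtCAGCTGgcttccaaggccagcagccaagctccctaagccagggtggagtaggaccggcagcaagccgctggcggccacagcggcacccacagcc
Acta1: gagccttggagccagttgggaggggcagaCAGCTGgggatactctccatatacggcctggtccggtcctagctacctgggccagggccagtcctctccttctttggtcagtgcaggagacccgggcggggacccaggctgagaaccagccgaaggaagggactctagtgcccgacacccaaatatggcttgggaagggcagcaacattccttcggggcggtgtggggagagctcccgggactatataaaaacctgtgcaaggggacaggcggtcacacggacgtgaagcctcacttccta
Myl1: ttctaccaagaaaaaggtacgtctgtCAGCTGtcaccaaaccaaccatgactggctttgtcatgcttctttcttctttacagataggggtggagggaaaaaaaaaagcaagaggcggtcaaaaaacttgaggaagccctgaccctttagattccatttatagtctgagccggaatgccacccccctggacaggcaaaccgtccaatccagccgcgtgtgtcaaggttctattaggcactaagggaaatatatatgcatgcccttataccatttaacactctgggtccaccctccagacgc

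The motif was found in 5355 of 32851 promoters of the table (16.3%), or by gene in 4944 of 27025 (18.3%). Counted by gene, it was found in 8 of 21 genes of the sarcomere list that the table holds (38.1%), in 4 of 7 of the acetylcholine receptor list, in 0 of 9 of the satellite cell identity list, in 1 of 15 of the basement membrane list and in 3 of 20 of the proliferation list. Among the 12 genes highest in Myog-positive cells it was found in 4 of 7 in the table, and among the 12 lowest in 1 of 10. These counts describe letters in a window of 300 bases and say nothing of binding.

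At 1000 UMIs per cell, at least 3 UMIs of the proliferation list were found in 22 of 94 critical cells (23.4%, 15.3 to 33.3%), 14 of 55 subcritical cells (25.5%, 14.7 to 39.0%) and 1 of 18 uninjured cells (5.56%, 0.141 to 27.3%). Without thinning the shares were 36.4%, 36.4% and 24.0%. At the same depth the fibroblast gate had 12.6%, 8.78% and 1.89%, and the endothelial gate 13.8%, 28.7% and 4.61%. The mural gate had 13.9%, 12.5% and 0 of 181 cells. The macrophage gate had 15.2%, 12.5% and 21.1%, so its share was highest in the uninjured library. That gate held unlike cells in the 3 libraries. C1qa was found in 702 of 766 critical and 765 of 821 subcritical cells of the gate, but in 27 of 152 uninjured cells. The uninjured cells passed mostly on Tyrobp, found in 148 of them, so their share is not one of C1qa-positive macrophages. Within the selected cells the share was 7 of 30 Myog-positive (23.3%) and 8 of 20 Pax7-positive critical cells (40.0%), and 3 of 20 (15.0%) and 4 of 12 (33.3%) in subcritical cells; the intervals of the states overlapped in both libraries. Top2a, the topoisomerase of dividing cells, had 157 CPM in critical, 237 in subcritical and 0 in uninjured cells.

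Of the 22 gene lists, the embryonic and early sarcomere list had the median farthest from 0 between critical and subcritical cells over all selected cells. Of 6374 genes with a mean of at least 20 CPM, 608 (9.54%) were past 2-fold higher in critical cells and 577 (9.05%) past 2-fold lower, with a median log2 fold of 0.02 over all genes. In that list 2 of 17 measured genes were higher in critical cells and 11 were past 2-fold lower, with a median of -1.45. Among muscle-gene cells alone 1 of 18 was higher and 12 were past 2-fold lower, with a median of -1.46. Within Myog-positive cells 1 of 21 was higher, with a median of -1.94, or -1.24 with genes at 0 set to their bound. Within Pax7-positive cells, where 6 genes of the list were measured, 3 were higher and the median was -0.21.

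The genes behind this were those of the contractile apparatus. Actc1 (ENSMUSG00000068614) had 124 UMIs in 14 critical cells (415 CPM), 163 UMIs in 14 subcritical cells (1135 CPM) and 0 in uninjured cells, a log2 fold of critical over subcritical of -1.45 (interval -1.80 to -1.11), and of -1.61 without the 5 cells of each library with most Actc1. Ttn had 558 CPM in critical, 891 in subcritical and 14.3 CPM in uninjured cells (log2 fold -0.67, -1.01 to -0.33). Tnnt2 had 167 CPM in critical, 383 in subcritical and 0 in uninjured cells (-1.19, -1.78 to -0.62). The level was thus lowest in the uninjured library and highest in the subcritical library for all 3 genes.

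Acta1 (ENSMUSG00000031972), the alpha-actin of adult skeletal muscle, had 39 UMIs in 11 critical cells (130 CPM), 111 UMIs in 9 subcritical cells (773 CPM) and 0 in uninjured cells (log2 fold -2.56, -3.13 to -2.03). Its 5 highest cells held 84.6% of the critical and 95.5% of the subcritical UMIs, and without them the fold was -0.79. Myl1 (ENSMUSG00000061816), the fast myosin light chain, had 9 UMIs in 4 critical cells (30.1 CPM), 37 UMIs in 8 subcritical cells (258 CPM) and 0 in uninjured cells (-3.06, -4.33 to -2.02). Mylpf, another fast light chain, had 36.8 CPM in critical and 251 CPM in subcritical cells (-2.74, -3.89 to -1.76); outside the 5 highest cells of each library 1 UMI was left in critical and 0 in subcritical cells. Myh3, the embryonic myosin heavy chain, had 20.1 CPM against 146 CPM (-2.80, -4.46 to -1.51), and Myl4, the embryonic light chain, 6.69 CPM against 132 CPM (-4.12, -7.45 to -2.26), each in 4 subcritical cells. These late and fast genes thus rested on few cells.

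Neb, encoding nebulin, had 93.6 CPM in critical and 230 CPM in subcritical cells (-1.29, -2.07 to -0.52), and Tpm2, encoding beta-tropomyosin, 288 CPM against 536 CPM (-0.90, -1.36 to -0.44). The filament genes were not lower in critical cells over all selected cells. Des had 642 CPM in critical and 634 CPM in subcritical cells (0.02, -0.35 to 0.40), and Nes, encoding nestin, 328 CPM against 216 CPM (0.60, 0.01 to 1.24). Des and Nes were the 2 genes of the list that were higher in critical cells over all selected cells. The Des interval lay on both sides of no change. In muscle-gene cells Des, given above, was slightly lower in critical than in subcritical cells.

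**Figure D4:**
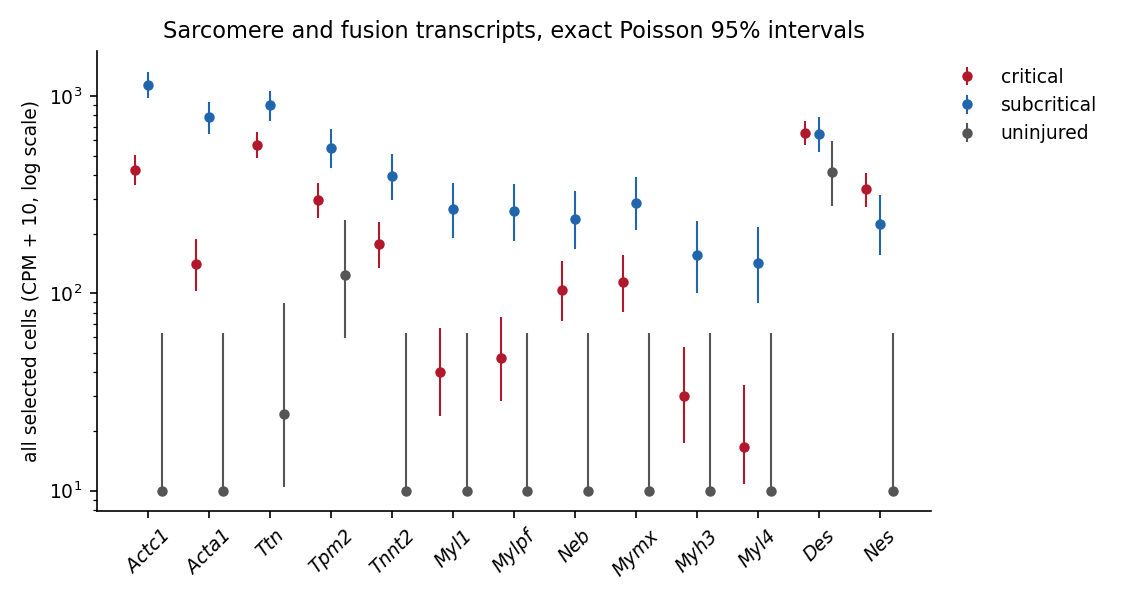
Summed level (CPM + 10, log axis) of sarcomere and fusion genes over all selected cells of the critical (red), subcritical (blue) and uninjured (grey) libraries, with exact Poisson 95% intervals for counting error. Actc1, Acta1 and Myl1 lie lower in critical than in subcritical cells with intervals apart, while the Des intervals overlap.

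Counted per cell, the list without Des gave 500 UMIs in the 33 Myog-positive critical cells (5319 CPM) and 605 UMIs in the 24 Myog-positive subcritical cells (12740 CPM), a log2 fold of -1.26. At least 1 such UMI was found in 29 of 33 and 23 of 24 cells, and 10 or more in 15 and 11 cells. The median critical cell gave 0.318% of its UMIs to the list and the median subcritical cell 0.585%, and the highest cell 2.14% and 12.9%. The 3 highest cells held 42.6% of the list's UMIs in critical and 54.1% in subcritical cells. Without them the levels were 4383 and 7504 CPM and the log2 fold was -0.78. Over all selected cells the list without Des stood at 2153 CPM in critical, 4706 in subcritical and 215 CPM in uninjured cells. Des had almost the same level in critical and subcritical selected cells, so leaving it out widened the fold of this sum between them. The ranges of the Myog-positive cells overlapped, and the subcritical cells reached higher.

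**Figure D5:**
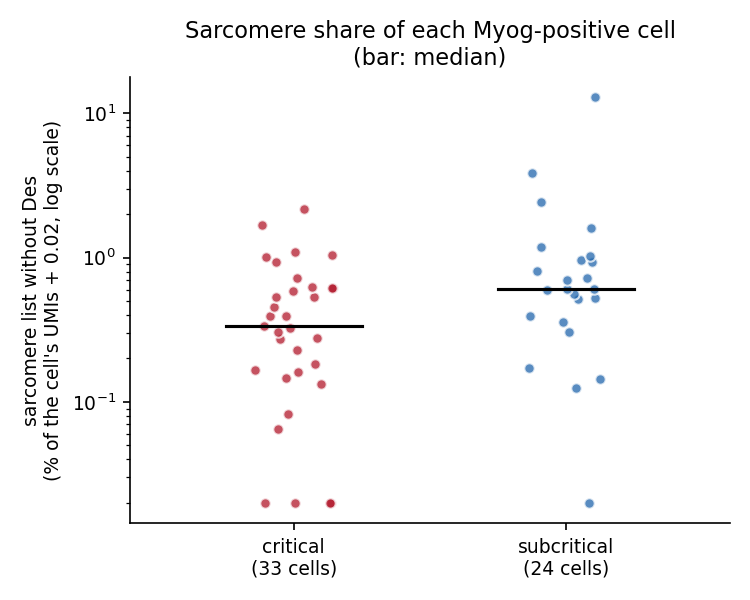
Sarcomere list without Des as a share of the UMIs of each Myog-positive cell (% + 0.02, log axis) in the critical (33 cells, left) and subcritical (24 cells, right) libraries; each point is a cell, and the bar is the median. The medians were 0.318% and 0.585%, and 1 subcritical cell reached 12.9%.

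The fusion list had a median log2 fold of critical over subcritical of 0.19 (6 of 10 measured genes higher). Mymx had 104 CPM in critical and 278 CPM in subcritical cells (-1.42, -2.15 to -0.71), whereas the interval of Mymk, at 278 CPM against 376 CPM, included 0 (-0.44, -0.95 to 0.08). The differentiation regulators had a median of -0.18 (2 of 12 higher). Among them Cdkn1a had 291 CPM in critical and 592 CPM in subcritical cells (-1.02, -1.47 to -0.58), and Cdkn1c 2023 CPM against 2151 CPM (-0.09, -0.29 to 0.11). Zbtb18, a repressor that muscle cells use during differentiation, and Mamstr, a coactivator of MEF2 factors, had folds of -1.41 and -1.36 on 10 to 15 UMIs a library. The acetylcholine receptor list had a median of 0.03 (3 of 5 higher), with Chrna1 at 378 CPM in critical and 369 CPM in subcritical cells and at 0 in uninjured cells. The mature fast fibre list had a median of 0.04 (2 of 4 higher).

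The satellite cell identity list had a median of 0.10 (10 of 13 higher). Sdc4, a co-receptor of growth factor signalling, had 221 CPM in critical, 167 in subcritical and 545 CPM in uninjured cells, and the adhesion molecule gene Vcam1 184, 139 and 330 CPM. Itga7, the laminin receptor subunit of muscle cells, had 157, 146 and 143 CPM. The critical over subcritical intervals of these 3 genes and of Notch3 included 0. The Notch pathway list had a median of 0.34 (7 of 11 higher), and Heyl had 134 CPM in critical, 104 in subcritical and 143 CPM in uninjured cells. The lists of growth factors and their receptors (0.10, 8 of 13 higher), of TGF-beta, BMP and myostatin signalling (0.08, 8 of 14), of glycolysis and hypoxia (0.10, 6 of 10) and of immediate early and stress genes (-0.06, 7 of 16) lay close to the median of all genes. The proliferation list had a median of -0.42 (2 of 22 higher) over all selected cells and of -0.14 (9 of 23) in muscle-gene cells. Hmgb2 and Stmn1 were the members of the list whose intervals lay below 0 (-0.71 and -0.56). Cytosolic ribosomal protein genes had a median of -0.01 (40 of 85 higher).

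Matrix genes differed with the cells counted. The basement membrane and niche matrix list had a median of 0.16 (12 of 18 higher) over all selected cells and of 0.57 (14 of 17) in muscle-gene cells. Col6a3 had 595 CPM in critical, 327 in subcritical and 143 CPM in uninjured cells (log2 fold of critical over subcritical 0.86, 0.39 to 1.36). Fibroblast transcripts had a median of 0.12 (8 of 11) over all selected cells and of 0.98 in muscle-gene cells, so the marker genes of another cell type moved with the matrix genes; their part in this was not tested. Igf1, which encodes a growth factor for muscle, had 425 CPM in critical, 258 in subcritical and 516 CPM in uninjured cells (0.72, 0.18 to 1.29). Spp1, the matrix protein osteopontin made by macrophages and other cells, had 582 CPM in critical, 209 in subcritical and 0 in uninjured cells (1.47, 0.91 to 2.09), and was lower in critical cells among Myog-positive cells (-0.40). The macrophage markers given above were also highest in critical cells over all selected cells. They summed to 285 CPM in critical and 284 CPM in subcritical muscle-gene cells, and to 384 and 103 CPM in Chodl-only cells. The part of macrophage transcripts in the Spp1 level was not tested. The lists of immune transcripts (0.32, 4 of 6 higher), endothelial transcripts (0.34, 3 of 4), mural transcripts (-0.15, 1 of 3), tenocyte transcripts (-0.12, 3 of 8) and chemokines and cytokines (0.33, 5 of 6) held few measured genes, and no glial transcript reached the minimum.

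The interferon response list had a median of -0.87 (2 of 9 higher) over all selected cells and of -0.36 in muscle-gene cells. Isg15, a ubiquitin-like protein induced by interferon, had 12 UMIs in critical, 30 in subcritical and 2 in uninjured cells, and 23 of the subcritical UMIs were in Chodl-only cells. Its log2 fold was -2.35 (-3.48 to -1.37) over all selected cells and -0.36 in muscle-gene cells. All 15 subcritical UMIs of Ifit3 were in 1 Chodl-only cell, as were all 19 of Cxcl10, whereas critical cells had 2 and 0 UMIs. MHC class I genes had a median of -0.50 (2 of 8 higher) and of -0.74 in muscle-gene cells, with H2-D1 at 241 CPM in critical, 279 in subcritical and 602 CPM in uninjured cells. In the fibroblast, endothelial and macrophage gates the interferon median was 0.09, 0.24 and 0.39, and in the mural gate -0.21.

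Beyond the lists, the genes highest in critical over subcritical cells were led by Mmp13, a collagenase, with 112 UMIs in 9 critical cells and 0 in subcritical cells (at least 17.9-fold higher). All of these UMIs were in Chodl-only cells, so they do not describe the muscle-gene cells. Pamr1, a gene named for its link to muscle regeneration, had 117 CPM in critical, 13.9 in subcritical and 445 CPM in uninjured cells (log2 fold 2.98, 1.11 to 6.17), with 31 of 35 critical UMIs in Chodl-only cells. Ecrg4 had 344 CPM in critical, 83.5 in subcritical and 445 CPM in uninjured cells (2.03, 1.18 to 3.04), with 93 of 103 critical UMIs in Chodl-only cells. Without cells over the fibroblast limit its fold turned to -1.04, on 8 UMIs in critical and 9 in subcritical cells. Matn2, a matrix adaptor protein, had 97.0 CPM in 24 critical cells, 20.9 CPM in 3 subcritical cells and 43.0 CPM in uninjured cells (2.16, 0.53 to 4.57), mostly in muscle-gene cells. Pepd, Rbm26, Mgat2, Tmem160, Ankrd13a, Dapk2, Ankrd17 and Nt5c had folds of 1.89 to 2.16 on 3 to 5 subcritical UMIs, with lower bounds of 0.22 to 0.71.

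The lowest gene was Nppc, which encodes C-type natriuretic peptide, with 6.69 CPM in critical, 97.5 in subcritical and 732 CPM in uninjured cells (critical over subcritical -3.68, -7.05 to -1.74). Its level followed the order critical, subcritical, uninjured from low to high, and its 51 uninjured UMIs came from 9 cells, none of them Chodl-only. Adnp, Mta1, Pja1, Tcf19, Sun1, Ecm2, Cib1 and Tnrc6c had folds of -2.20 to -1.63, and Myl1, Acta1 and Isg15 completed the 12 lowest.

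Set against the uninjured library, the injured cells had higher levels of contractile and cell cycle transcripts and lower levels of immediate early and stress transcripts. With 25 uninjured cells, 20.5% of 6432 genes were past 2-fold higher and 19.3% past 2-fold lower in critical over uninjured cells, and 19.8% and 21.6% of 6444 genes in subcritical over uninjured cells. Both comparisons share the uninjured library. The sarcomere list was higher in 9 of 9 measured genes in critical and 16 of 16 in subcritical cells, with medians of 6.56 and 7.13, or 1.32 and 2.14 with genes at 0 set to their bound. The proliferation list was higher in 17 of 17 and 22 of 22, with medians of 4.11 and 5.73, or 1.87 and 1.64 at the bound. Genes of both lists at 0 in uninjured cells reached the minimum only through the injured cells. Such genes could only count as higher, so the counts of genes are no evidence of a difference. Cdkn1c stood at 2023 CPM in critical, 2151 in subcritical and 115 CPM in uninjured cells.

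By count, more genes of the satellite cell identity list were lower than higher in injured cells. The list was higher in 5 of 16 genes in critical and 4 of 15 in subcritical over uninjured cells, with medians of -0.70 and -1.01. Genes at 0 in injured cells reached the minimum only through the uninjured cells and could only count as lower. The counts of genes are therefore no evidence of a difference, and the medians share this limit. Cells with Pax7 and no Myog UMI were 25.5% of critical, 20.8% of subcritical and 52.0% of uninjured selected cells, and their part in these values was not tested. Calcr, the calcitonin receptor of quiescent satellite cells, was at 0 in critical and subcritical cells and had 5 UMIs in 4 uninjured cells (71.7 CPM). Chrdl2 had 6.69 CPM in critical, 20.9 in subcritical and 244 CPM in uninjured cells, and Spry1, an inhibitor of growth factor signalling, 93.6, 132 and 330 CPM. Fgfr4, a fibroblast growth factor receptor of muscle cells, had 107, 160 and 258 CPM. The genes named here were chosen after their values were seen, and Itga7, given above, was not lower in injured cells.

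The immediate early and stress list was higher in 1 of 18 genes in critical and 0 of 18 in subcritical over uninjured cells, with medians of -2.10 and -2.06. Fos had 167 CPM in critical, 83.5 in subcritical and 732 CPM in uninjured cells, Egr1 321, 334 and 1434 CPM, Jun 475, 585 and 1248 CPM, and the heat shock gene Hspa1a 311, 272 and 2195 CPM. These genes respond to tissue digestion as well as to signals in the muscle, and the contributions cannot be told apart here. In the gates for fibroblasts, endothelium, macrophages and mural cells the same list had critical over uninjured medians of -0.49, -0.42, -0.65 and -1.47, and subcritical over uninjured medians of -0.31, -0.27, -0.49 and -1.27. The macrophage gate held unlike cells in the injured and uninjured libraries, as given above.

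The tenocyte list had medians of -2.49 in critical and -2.08 in subcritical over uninjured selected cells, which came from the Chodl-only cells; without them the medians were 6.35 and 3.74, or 0.49 and 1.03 with genes at 0 set to their bound, on 3 and 2 measured genes.

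The antibody panel gave little on these cells. The median selected cell carried 34 panel counts in the critical, 44 in the subcritical and 33 in the uninjured library, against 134, 193 and 241 in the endothelial gate. Of 138 panel antibodies, 71 exceeded every isotype control in the selected cells of both injured libraries, and 0 of those 71 took a higher share of panel counts in selected cells than in all 4 gates in both libraries (smallest ratio at most 0.913, for TCR_Valpha2). Without cells dominated by 1 antibody 5 did, CD63 having the highest smallest ratio (1.28). In the subcritical library 1 Chodl-only cell held 9713 of 14843 panel counts and made CD49d 47.6% of them, so shares are given for muscle-gene cells from here on. Among muscle-gene cells 1 critical cell still held 1678 of 4853 panel counts and 1 subcritical cell 1022 of 3895. The highest uninjured muscle-gene cell held 64 of 585. The part of these cells in the shares below was not tested.

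CD200, whose gene Cd200 encodes a membrane protein that restrains myeloid cells, is shown with CD106 (VCAM1) because the transcripts of both were found in these cells; their antibody barcodes follow.
CD200: TCAATTCCGGTAGTC
CD106: CGTTCCTACCTACCT

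CD200 took 1.90% of panel counts in critical (92 counts), 2.05% in subcritical (80 counts) and 10.4% in uninjured (61 counts) muscle-gene cells, beside 10.3%, 2.53% and 4.89% in the endothelial gate; the critical endothelial share was 2.65% without cells dominated by 1 antibody. The transcript stood at 83.6 CPM in critical, 132 in subcritical and 230 CPM in uninjured selected cells, so transcript and antibody share were both highest in the uninjured library. CD63, a tetraspanin, took 1.18%, 1.08% and 1.54% in muscle-gene cells. CD106 took 0.288% in critical (14 counts, 0.158 to 0.483%), 0.205% in subcritical (8 counts) and 0.342% in uninjured muscle-gene cells (2 counts), beside a highest isotype control of 0.247%, 0.205% and 0.342%. The critical share was above that isotype control with overlapping intervals, and the other 2 shares equalled theirs, while Vcam1 transcript was present in all 3 libraries. CD45, the leukocyte marker, took 0.0206% of panel counts in critical (1 count), 0.0513% in subcritical (2 counts) and 0 in uninjured muscle-gene cells.

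The hashtags that marked single animals were carried by few of these cells, so animals could not be compared on gene levels. A hashtag was called in 1 of 110 critical, 3 of 77 subcritical and 1 of 25 uninjured selected cells (0.909%, 3.90% and 4.0%), against 77.2%, 78.0% and 84.9% of the macrophage gate and 3.46%, 3.95% and 2.47% of the fibroblast gate. Over animals, selected cells were 0.0620% ± 0.124 of tagged cells in the critical, 0.248% ± 0.288 in the subcritical and 0.0625% ± 0.125 in the uninjured group (SD, n = 4 animals each). The critical minus subcritical difference was -0.186 percentage points (exact two-sided permutation test over animals, p = 0.429, Benjamini-Hochberg adjusted over 3 comparisons 0.644), critical minus uninjured gave p = 1.0 (adjusted 1) and subcritical minus uninjured p = 0.429 (adjusted 0.644) by the same exact test. Only 5 tagged cells carry these values and most animals are at 0, so the smallest p these values allow is 0.143 with the subcritical group in the comparison and 0.429 for critical against uninjured; the tests could not pass 0.05.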

How the data were processed

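Gene and antibody UMI counts came from filtered feature-barcode matrices that the authors deposited, 1 per library, written by Cell Ranger 6.0.2 per the file headers, covering 32285 genes, 4 hashtags and an antibody panel of 138 that includes 3 isotype controls; the genome was GRCm39 per the submitters' processing notes. Counts were used as deposited. No doublet caller was run, and a sort or other gate beyond the rule was not applied. From the counts, UMIs were summed over the selected cells of a library and scaled to CPM; log2 folds used a pseudocount of 1 CPM, with exact conditional binomial 95% intervals and exact Poisson or Clopper-Pearson intervals for levels and shares. Intervals and floors (3 counts over a group) cover counting error only. A gene was measured at a mean of at least 20 CPM over the libraries compared and counted past 2-fold; named genes were the 12 highest and 12 lowest at a mean of at least 50 CPM (for critical over subcritical, with an interval that excludes 0 and the same sign with equal cell weights and without the 5 highest cells), and up to 4 members of each list by level and any whose interval excludes 0. Calcr, Chrdl2, Fgfr4, Hspa1a, Megf10, Spry1, Top2a and Cd200 fall outside this rule and were chosen after their values were seen. The members, the 22 lists and the named genes were chosen with earlier results of these data known. Gates needed at least 3 UMIs of Pdgfra, Lum, Dpt and Mfap5 (fibroblast), 3 of Pecam1 and Cdh5 (endothelial), 6 of C1qa, C1qb and Tyrobp (macrophage) or 3 of Rgs5, Kcnj8, Abcc9 and Myh11 (mural). A hashtag was called at 5 or more counts and 70% of a cell's hashtag counts. Depth was 299057 UMIs in critical, 143639 in subcritical and 69717 in uninjured selected cells. Python 3.11.15, numpy 2.4.6, pandas 2.3.3, scipy 1.17.1 and matplotlib 3.10.9 were used, and the calculations were tested on simulated data.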

Additional observations from a re-analysis of the deposited data

Results flagged for a closer look

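In the critical group 1 of 4 animals stood apart from the others in the share of its tagged cells that were selected cells, at 0.248% (1 of 403 tagged cells) against 0 in the other 3 animals. In the uninjured group 1 animal likewise stood at 0.25% (1 of 400 tagged cells) against 0 in the other 3. Each value is 1 cell: with a single tagged selected cell in a group, 1 animal has to stand apart, so the values say nothing about these animals.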

How the results depend on the processing

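Of the values compared with alternatives, 489 of those answering a comparison were counted as unchanged, 52 as moved and 6 as reversed. Of single genes, 1628 were counted as unchanged, 285 as moved and 19 as reversed. Values counted as unchanged did not all keep their direction. The critical minus uninjured tagged share, counted neither as moved nor as reversed, ran from -0.0625 to 0.0620 percentage points. The hashtag setting that removed no cell could give only unchanged values. The sarcomere list stayed below 0 for critical over subcritical cells in all 14 alternatives (-1.94 to -0.21), including the hashtag setting that removed no cell. All of them recount the same 2 libraries, and the value nearest 0 was that within Pax7-positive cells. Of the 19 single-gene reversals, 13 set 1 to 4 critical UMIs against 0 subcritical UMIs, so that the pseudocount fixes the value, and 4 had more than 3 UMIs in both libraries (Spp1, Cdkn1a, Ifi27l2a and Ecrg4). The cause of the other changes was not tested. A marker sum of at least 3 gave shares of 2.66% in critical and 1.79% in subcritical cells, and Ifit3 3.27 (2 UMIs against 0). Requiring 2 of the 6 genes gave 2.40% and 1.59% of barcodes, Myog in 42.1% of critical cells, Pax7 without Myog in 32.6% of subcritical and 76.5% of uninjured cells, 1003 genes past 2-fold higher, list medians of 0.73 (basement membrane), 1.09 (fibroblast) and 0.68 (tenocyte), Ifit3 2.59 (1 against 0), Fabp4 4.40 (4 against 0), and over uninjured cells tenocyte medians of 6.43 and 3.86 (critical and subcritical) and an immediate early median of -3.23 (subcritical). At least 1000 UMIs, and thinning to 1000 UMIs, left 0% of uninjured cells with Myog. Thinning gave Pax7 without Myog in 12.8% of critical cells and 23.4%, 25.5% and 5.56% cycling cells in critical, subcritical and uninjured libraries. Without cells over the fibroblast limit, fibroblast transcripts had -0.45, Ecrg4 -1.04 (8 against 9), Ifit3 2.40 (1 against 0), and the tenocyte list 0.63 and 0.54 over uninjured cells. Without Chodl-only cells (chosen after seeing the data) the shares were 2.59% and 1.96%, Myog 40.2% of critical and Pax7 without Myog 76.5% of uninjured cells, fibroblast transcripts 0.98, tenocyte 0.88, Ifit3 2.52 (1 against 0), Fabp4 4.32 (4 against 0), and tenocyte over uninjured 6.35 and 3.74. Genes past 2-fold higher and lower numbered 98 and 131 at a mean of 50 CPM, 3258 and 1652 with no filter, 980 and 877 within Myog-positive and 1426 and 1654 within Pax7-positive cells, and 342 lower at a pseudocount of 5 CPM. Within Myog-positive cells medians were 1.36 (basement membrane, 0.49 at the bound), 3.06 (chemokines, 0.07 with genes at 0 at their bound), 1.15 (fibroblast, 0.97 at the bound) and 0.78 (tenocyte), with Isg15 4.48 and Fabp4 4.48 (2 against 0 each) and Spp1 -0.40 (9 against 6). Within Pax7-positive cells they were -0.21 (sarcomere), -1.15 (mature fibre, -0.60 at the bound), 1.20 (fibroblast, 1.10 at the bound), 3.57 (endothelial, 0.33 at the bound) and 1.10 (tenocyte), with Tmem160 -0.19 (4 against 2), Cdkn1a 0.48 (16 against 5), Ifi27l2a 0.50 (13 against 4), Dnajb1 1.10 (5 against 1), Fabp4 5.03 (2 against 0), and Zbtb18, Mylpf and Ifit3 4.07 (1 against 0 each). Mylpf was 2.26 without its 5 highest cells (1 against 0). Over the highest gate, CD200 had ratios of 0.0372, 0.226 and 0.173 and CD63 0.419, 0.868 and 0.482 by mean counts per cell in critical, subcritical and uninjured cells; without antibody aggregates CD200 had 0.629 and 0.717 in the injured libraries and CD63 1.28 in the subcritical one. Leaving out each animal in turn gave tagged shares of -0.269 to -0.0909 percentage points (critical minus subcritical), -0.0625 to 0.0620 (critical minus uninjured) and 0.0904 to 0.268 (subcritical minus uninjured). No paired analysis was possible because each group is 1 library of different animals. Depth limits the uninjured values most, where 1 UMI is 14.3 CPM.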
